A study of Mus musculus with 6 samples.

Results

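The genes described here encode subunits of potassium channels of the arterial wall, with Kcnd3 among them. They were chosen by name and found in the gene count table by their Ensembl identifiers. All 8 genes (Kcnd3, Kcnd1, Kcna5, Kcnq5, Kcnma1, Kcnmb1, Kcnj8 and Abcc9) were present among the 52636 genes of the table, and all 8 averaged 10 or more normalised counts. They were chosen with the difference between the groups known, so their values below are a description.

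The values come from RNA sequencing of whole thoracic aortas of mice 12 weeks of age, with 4 libraries of C57BL/6J mice left untreated (WT) and 2 of Tgfbr1/2iSMCKO mice (KO). The KO mice carried loxP-flanked alleles of Tgfbr1 and Tgfbr2, the Myh11-CreERT2 transgene, whose Cre is expressed from the promoter of a smooth muscle myosin gene, and the mT/mG reporter, and were given 2 mg tamoxifen daily over 5 days, starting at an age of 11 weeks. Compound mutant lines had been crossed to the B6 background. The WT mice had neither the floxed alleles, the Cre, the reporter nor tamoxifen, so an effect of receptor deletion cannot be told apart from an effect of any of these.

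Total estimated counts ran from 19650983 to 28860598 per library. The mitochondrial share of counts was 2.62% to 4.44% in WT libraries, 3.38% in KO-1 and 11.7% in KO-2, with 95% Wilson intervals of at most 0.0142 percentage points to either side, which cover counting error only. Summed smooth muscle markers (Acta2, Myh11, Tagln and 6 others) were 980314.2 to 1120426.5 normalised counts in WT and 967311.4 and 1080355.8 in KO, so the defining genes of the labelled tissue were present. The sum hides members that went opposite ways. In both KO libraries Tagln, Cnn1 and Smtn lay below every WT library, and Myh11 and Synpo2 lay above. Of the 9 markers, 0 had a DESeq2 adjusted p-value under 0.05, which 10.4% of all tested genes had. The counts of Tgfbr1 and Tgfbr2 overlapped between groups (log2 fold changes 0.20 and -0.09), which does not test the labels because exons outside the deleted parts are counted too. Labels of the table's columns are codes that were matched to groups, as described with the processing.

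Potassium channels open to let potassium leave the cell, which brings the membrane of a smooth muscle cell to more negative voltages and closes voltage-gated calcium channels, so that the vessel relaxes. The voltage-gated (Kv) subunits open upon depolarisation. The large-conductance channel (BK) opens with calcium and voltage, and the ATP-sensitive channel couples conductance to the metabolic state of the cell. Kcnd3 and Kcnd1 encode pore subunits of the Kv4 family, which carry rapidly inactivating currents and are best known in heart and neurons. Kcna5 and Kcnq5 encode Kv1 and Kv7 pore subunits. Kcnma1 is the pore and Kcnmb1 the smooth muscle beta subunit of BK. Kcnj8 is the pore and Abcc9 the sulfonylurea receptor of the vascular ATP-sensitive channel, and neither Kcnmb1 nor Abcc9 forms a pore by itself.

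Promoter sequence is shown for Kcnd3, Kcna5 and Abcc9, the members whose adjusted p-value passed in the comparison of the groups. Each is the 250 bases before the transcription start given by RefSeq on GRCm38.p6, read 5′ to 3′ on the strand of the gene. Capitals mark CAGAC, the core of the sequence bound by Smad proteins, or its reverse complement GTCTG. The stretches lie at chr3:105451640-105451889 (plus strand), chr6:126535556-126535805 (minus strand) and chr6:142702275-142702524 (minus strand).
Kcnd3: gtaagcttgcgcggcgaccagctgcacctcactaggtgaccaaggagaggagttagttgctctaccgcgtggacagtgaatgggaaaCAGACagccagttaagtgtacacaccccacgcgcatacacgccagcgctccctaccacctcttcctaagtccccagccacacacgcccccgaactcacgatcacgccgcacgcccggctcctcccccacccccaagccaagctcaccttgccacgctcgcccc
Kcna5: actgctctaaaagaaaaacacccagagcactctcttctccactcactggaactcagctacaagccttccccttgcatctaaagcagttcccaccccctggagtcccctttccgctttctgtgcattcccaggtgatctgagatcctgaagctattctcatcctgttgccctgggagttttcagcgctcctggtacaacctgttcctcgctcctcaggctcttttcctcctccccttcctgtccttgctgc
Abcc9: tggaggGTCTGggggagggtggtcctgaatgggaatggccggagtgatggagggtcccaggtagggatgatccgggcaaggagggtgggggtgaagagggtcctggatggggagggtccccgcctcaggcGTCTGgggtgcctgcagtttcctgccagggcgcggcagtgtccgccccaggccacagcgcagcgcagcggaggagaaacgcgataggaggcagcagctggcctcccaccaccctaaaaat
The Kcnd3 stretch held this motif 1 time, that of Abcc9 2 times and that of Kcna5 0 times. On either strand it occurred in 42.2% of 32851 promoter windows of this length in RefSeq. The E-box CACGTG (in 6.02% of windows) and the CArG box bound by serum response factor (in 1.47%) had 0 matches in all 3 stretches. The matches are a description of the letters and carry no statement on binding.

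Of the 8 genes, Kcnd3 and Kcna5 were called higher in KO and none was called lower. A call is a DESeq2 adjusted p-value under 0.05 with a fold change above 2, which 5.64% of the 17070 tested genes reached (3.54% higher and 2.1% lower). Abcc9 passed the adjusted p-value with a smaller change, and so 3 of 8 passed it in all, each higher, against 10.4% of tested genes (5.71% higher and 4.69% lower). Both KO libraries lay above every WT library for Kcnd3, Kcna5, Kcnj8 and Abcc9, which held for 17.9% of tested genes, and for 0 of the 8 did they lie below every WT library, which held for 16.4% (34.3% for either side). The median log2 fold change of the 8 genes was 0.30, against 0.01 over all tested genes. Since the genes were picked with these results known, nothing is read from these counts.

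**Figure D1:**
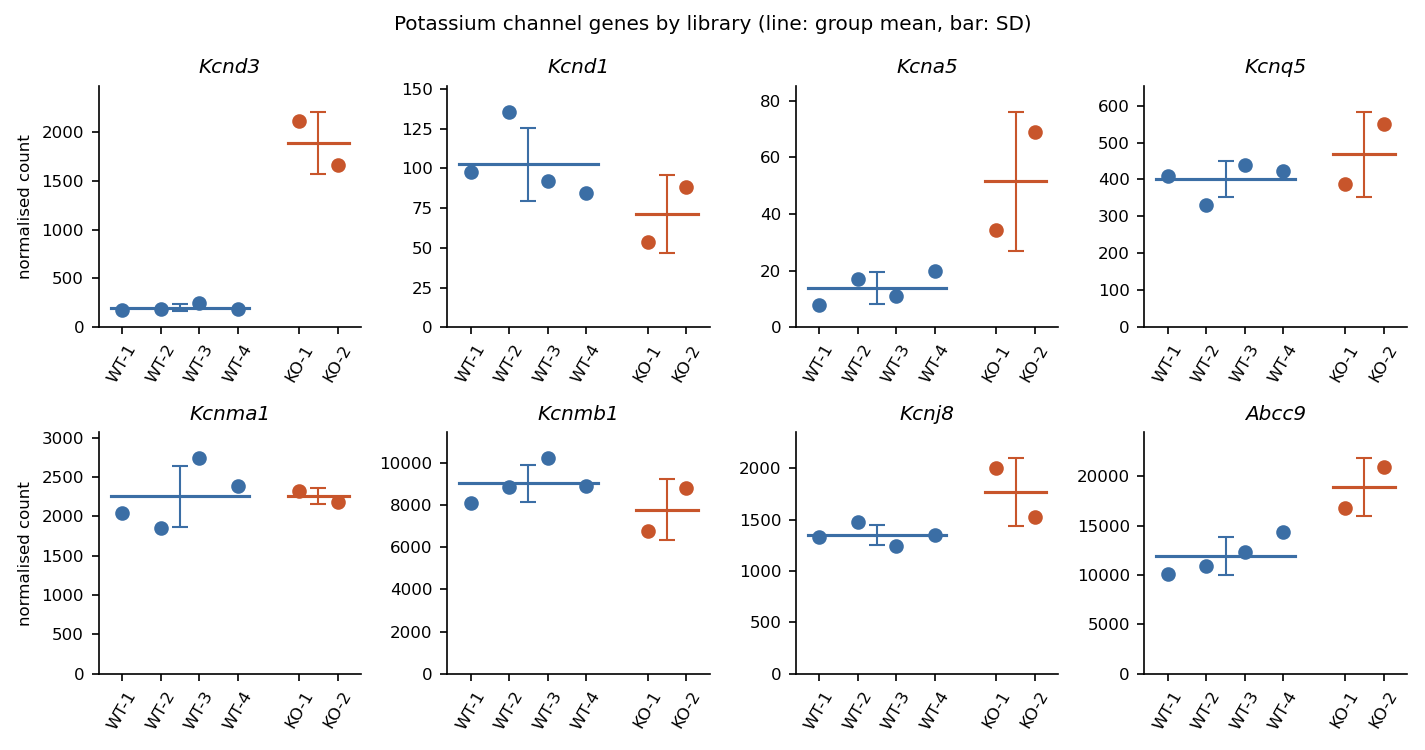
Normalised counts (counts divided by DESeq2 size factors, linear axes from 0) of the 8 genes in each library, with 4 WT libraries in blue and 2 KO libraries in orange. Lines are group means and bars are SDs. Kcnd3 stood between 1666 and 2115 in KO and between 181.2 and 248.7 in WT, while Kcnma1 overlapped between groups.

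Kcnd3 (ENSMUSG00000040896.16, GRCm38 chromosome 3, 105452330 to 105674002, plus strand) encodes Kv4.3. In order of number, the WT libraries had 181.2, 189.5, 248.7 and 182.7 normalised counts, with 2115 in KO-1 and 1666 in KO-2. The lower KO library was thus several times above the highest WT library. The WT mean was 200.5 ± 32.3 (SD, n = 4), the KO mean was 1890 ± 317.6 (SD, n = 2), and the change was 9.43-fold. The log2 fold change was 3.24 ± 0.22 (SE) (DESeq2 adjusted p-value 8.24e-45). Taken singly, KO-1 was 10.5-fold and KO-2 was 8.29-fold above the WT mean. The antisense gene Kcnd3os shares 165 exon bases with Kcnd3 and had between 2 and 13 counts per library, beside 165 to 2787 counts of Kcnd3.

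Kcnd1 (ENSMUSG00000009731.4, chromosome X, 7822289 to 7838280) encodes another Kv4 pore. It had 97.8, 135.6, 91.9 and 84.6 normalised counts in WT, 53.9 in KO-1 and 88.5 in KO-2. KO-2 lay within the WT range and KO-1 below it. The log2 fold change of -0.54 (SE 0.39, 95% interval -1.296 to 0.22, DESeq2 adjusted p-value 0.446) did not pass, and the interval leaves room for a decrease of more than 2-fold. Kcnd2, the remaining Kv4 pore gene, had at most 8.99 normalised counts in WT and 17.5 and 13.5 in KO, and its adjusted p-value was 0.416.

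The make-up of the Kv4 family was described within each library, on levels per length (estimated counts per kilobase of merged exons scaled to the library total as CPM is). In WT, Kcnd3 and Kcnd1 stood near each other, with Kcnd3 making up 50.6%, 43.5%, 57.6% and 52.8% of the summed Kv4 level. In KO-1 the share of Kcnd3 was 94.2% and in KO-2 it was 90.0%. The group values were 51.1% ± 5.85 (SD, n = 4) and 92.1% ± 2.99 (SD, n = 2), with no overlap. The summed Kv4 level went from 1.74 ± 0.215 (SD, n = 4) in WT to 9.34 ± 1.91 (SD, n = 2) in KO. The ratio of Kcnd3 to Kcnd1 level ran from 0.771 to 1.49 in WT and was 21.6 in KO-1 and 10.4 in KO-2. These ratios are taken inside a library and do not depend on how libraries are scaled to each other. Since Kcnd1 and Kcnd2 did not pass the adjusted p-value, the shares and ratios mostly restate the difference in Kcnd3. They are no separate evidence for it.

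**Figure D2:**
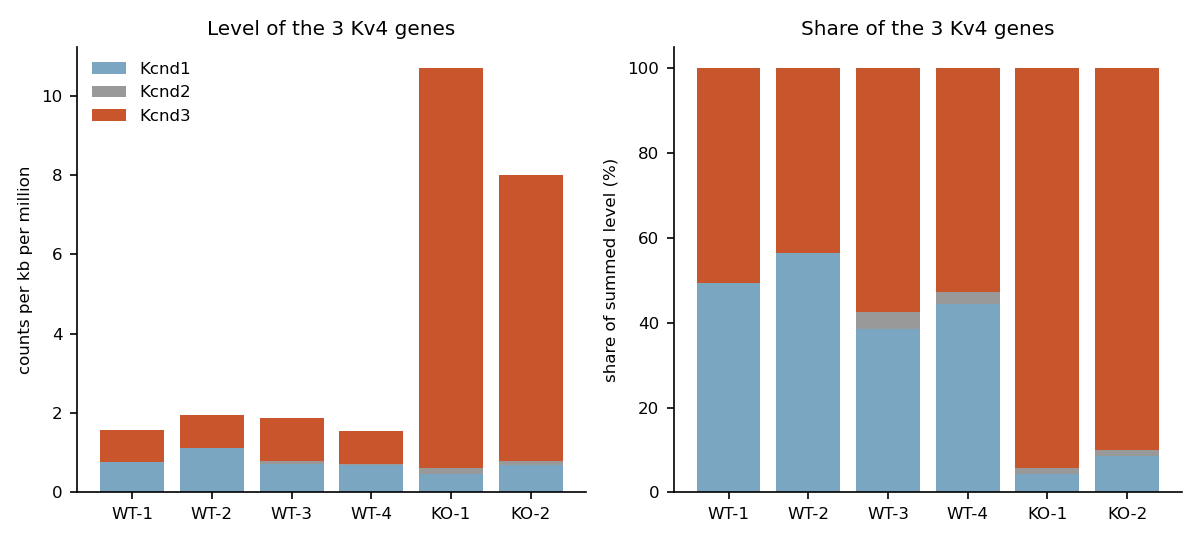
Levels of the Kv4 genes Kcnd1, Kcnd2 and Kcnd3 in each library, as stacked depth-scaled counts per kilobase of merged exons (left) and as shares of their sum in percent (right). Kcnd3 filled between 43.5% and 57.6% of the bar in WT and 94.2% and 90.0% in KO-1 and KO-2.

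Kv4 pores work with cytosolic KChIP proteins (Kcnip genes) and membrane dipeptidyl peptidase-like proteins (Dpp6, Dpp10). Of 6 such partners, 4 had an adjusted p-value in DESeq2, and 0 of these passed, where 10.4% of all tested genes did. None of the 4 had an unadjusted p-value under 0.05, and in edgeR with a filter 0 of 3 passed and 0 had one. Kcnip4 had 259.5 to 365.5 normalised counts in WT and 262.5 and 395.8 in KO (log2 fold change 0.12, SE 0.27, DESeq2 adjusted p-value 0.854). Kcnip3 had 77.9 to 118 in WT and 78.9 and 87.3 in KO (log2 fold change -0.17, SE 0.35, DESeq2 adjusted p-value 0.85). Kcnip2, the KChIP known from the heart, had at most 8.79 in WT, 14.4 in KO-1 and 4.92 in KO-2. Kcnip1 had 0 counts in every library, and Dpp6 at most 2.28 normalised counts.

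The genes whose profile over the 6 libraries lay nearest to that of Kcnd3 were sought among 12590 genes averaging 50 or more normalised counts. Likeness was the root-mean-square difference of log2 values, each less its WT mean. The nearest were Gm12504, a processed pseudogene (difference 0.39), Gm43305, a processed transcript (0.43), Myl1, a myosin light chain of striated muscle (0.47), Tlr8, an endosomal receptor for RNA of immune cells (0.48), and Ccr1, a chemokine receptor of leukocytes (0.49). Their normalised counts in KO were between 115.3 and 565.4 and in WT between 8.08 and 44.9. All 5 were thus under 50 in every WT library and passed the minimum through their KO counts. The likeness is mostly to the rise in KO with which Kcnd3 was chosen, so it is a description. Of the 5, 0 were potassium channel genes. Nothing is read from this, since only 50 genes of the potassium channel list averaged even 10 normalised counts, against the 12590 candidates.

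Kcna5 (ENSMUSG00000045534.4, chromosome 6, 126532551 to 126535412, minus strand) encodes Kv1.5, a delayed rectifier of arterial smooth muscle. Per length it had the lowest level of the 8 genes in WT, and it had estimated counts of only 7, 19, 11 and 19 in WT, 45 in KO-1 and 56 in KO-2. As normalised counts these were 7.69, 17.1, 11.0 and 19.8 in WT and 34.1 and 68.8 in KO. Both KO libraries were above every WT library, with KO-2 the higher of the pair. The log2 fold change was 1.88 ± 0.65 (SE), with a 95% interval of 0.60 to 3.16 (DESeq2 adjusted p-value 0.0418). The call was lost in edgeR's quasi-likelihood test (adjusted p-value 0.0689), without WT-1, WT-2 or WT-3 (from 0.074 to 0.0944), and without KO-2 (0.47, log2 fold change 1.304).

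Of the 11 Kv1 genes and their Kvbeta partners, 7 were tested and 3 were called, all higher, where 3.54% of all tested genes were called higher. Besides Kcna5 these were Kcna2 and Kcnab2. Since Kcna5 was picked with its result known, nothing is read from this count. Kcna2, a Kv1 pore known from myelinated axons, had 179, 40.4, 214.7 and 36.5 normalised counts in WT, 963.7 in KO-1 and 730.1 in KO-2. The WT libraries fell into a higher and a lower pair, and both were below KO. Its log2 fold change was 2.85 (SE 0.92, DESeq2 adjusted p-value 0.0236), and its adjusted p-value was 0.177 without KO-1 and 0.171 without KO-2. Kcnab2, an auxiliary Kvbeta subunit, had 38.9 to 62.6 in WT and 102.4 and 165.9 in KO, with a log2 fold change of 1.43 (SE 0.40, DESeq2 adjusted p-value 0.00621, and 0.224 without KO-2). Kcnab1 had 5103 to 6412 in WT and 6657 and 6254 in KO (log2 fold change 0.18, DESeq2 adjusted p-value 0.586). Kcna1 and Kcna6, which lie near Kcna5 on chromosome 6, had log2 fold changes of 0.19 and -0.14 (DESeq2 adjusted p-value 0.903 for each).

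Kcnq5 (ENSMUSG00000028033.16, chromosome 1, 21398403 to 21961942, minus strand) encodes Kv7.5, a pore of the slow Kv7 current that holds arterial smooth muscle relaxed at rest. It had 409.7, 330.5, 440.4 and 422.9 normalised counts in WT, 387 in KO-1 and 549.4 in KO-2. KO-1 lay within the WT range and KO-2 above it. The log2 fold change was 0.22 ± 0.24 (SE), with a 95% interval of -0.25 to 0.69 (DESeq2 adjusted p-value 0.659). Kcnq3, a subunit of the neuronal M current, was the Kv7 gene that was called lower. It had 194.4, 219.1, 260.6 and 247.5 normalised counts in WT and 97.9 and 83.6 in KO, a log2 fold change of -1.34 (SE 0.28, DESeq2 adjusted p-value 7.17e-05).

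The BK channel was represented by its pore and its beta subunit. Kcnma1 (ENSMUSG00000063142.15, chromosome 14, 23289431 to 24014491, minus strand) had 2043, 1854, 2737 and 2387 normalised counts in WT, 2326 in KO-1 and 2187 in KO-2. Both KO libraries lay inside the WT range. The log2 fold change was 0.00 ± 0.20 (SE) (DESeq2 adjusted p-value 0.999), and its 95% interval of -0.39 to 0.39 does not reach a 2-fold change either way. Kcnmb1 (ENSMUSG00000020155.2, chromosome 11, 33963013 to 33973641, plus strand), which raises the calcium sensitivity of BK in smooth muscle, had 8115, 8859, 10225 and 8928 in WT, 6758 in KO-1 and 8817 in KO-2. KO-1 was below all WT libraries and KO-2 among them. Its log2 fold change was -0.21 ± 0.18 (SE), with a 95% interval of -0.57 to 0.14 (DESeq2 adjusted p-value 0.54). It lies on the other strand within the span of Kcnip1, with which it shares no exon bases.

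Per length, the ratio of Kcnmb1 to Kcnma1 was 16.1, 19.3, 15.1 and 15.1 in WT, 11.8 in KO-1 and 16.3 in KO-2. The means were 16.4 ± 2.00 (SD, n = 4) and 14.0 ± 3.23 (SD, n = 2), and KO-2 was within the WT range. The level of the beta subunit was above that of the pore in each library. The merged exons of Kcnma1 span 16976 bases, more than a single transcript holds, which lowers its level per length.

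Kcnj8 and Abcc9 are neighbours on chromosome 6, with 16248 bases between the end of the one and the start of the other, both on the minus strand. Kcnj8 (ENSMUSG00000030247.9, 142564837 to 142571614) encodes the inward rectifier Kir6.1, and its normalised counts were 1330, 1481, 1239 and 1353 in WT, 2001 in KO-1 and 1532 in KO-2. KO-2 was only just above the highest WT library. The log2 fold change was 0.39 ± 0.19 (SE) (unadjusted p-value 0.0378, DESeq2 adjusted p-value 0.19). Without KO-2 the log2 fold change was 0.58, and without KO-1 it was 0.18.

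Abcc9 (ENSMUSG00000030249.15, 142587862 to 142702315) encodes the receptor SUR2, on which channel openers act. It had 10056, 10926, 12323 and 14397 normalised counts in WT, 16824 in KO-1 and 20966 in KO-2. Both KO libraries were above all WT libraries, with KO-2 the higher of the pair. The change was 1.58-fold, with a log2 fold change of 0.66, a standard error of 0.20 and a 95% interval of 0.28 to 1.05 (DESeq2 adjusted p-value 0.0119). It lost significance in edgeR's quasi-likelihood test (adjusted p-value 0.0675), without WT-2 (0.0643) and without KO-2 (0.204). Per length, Abcc9 stood at 2.30, 2.25, 3.03 and 3.24 times Kcnj8 in WT, at 2.56 times in KO-1 and at 4.17 times in KO-2, so that KO-1 lay within the WT range and KO-2 above it.

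Among the 17 inward rectifier and sulfonylurea receptor genes, 10 were tested, 2 passed the adjusted p-value and 1 was called, near the shares over all tested genes (10.4% and 5.64%). The gene called was Kcnj2, the pore of the classical inward rectifier Kir2.1, with 23.1, 27.8, 67.9 and 38.6 normalised counts in WT and 163.9 and 119.2 in KO. Its log2 fold change was 1.85 (SE 0.48, DESeq2 adjusted p-value 0.0029, and 0.115 without KO-1). Kcnj11, the other pore of ATP-sensitive channels, had 185.9 to 205.7 in WT, 152.5 in KO-1 and 45.5 in KO-2 (log2 fold change -0.96, DESeq2 adjusted p-value 0.118). Kcnj3 and Kcnj5, the subunits of the atrial acetylcholine-gated channel, had 229.2 and 264.8 normalised counts in KO-1 and 0 in KO-2, with at most 7.31 and 30.3 in WT. They were seen at that level in KO-1 alone.

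Levels could be set side by side per length. In WT the order was Kcnmb1 (91.3 ± 8.61 depth-scaled counts per kilobase, SD, n = 4), Abcc9 (60.4 ± 9.98), Kcnj8 (22.5 ± 2.00), Kcnma1 (5.62 ± 0.928), Kcnq5 (2.21 ± 0.246), Kcnd3 (0.886 ± 0.135), Kcnd1 (0.823 ± 0.193) and Kcna5 (0.207 ± 0.0852). Kcnd3 and Kcnd1 overlapped, and the other neighbours in this order did not. Among genes averaging 10 or more normalised counts, Kcnmb1 was at percentile 97.4 of WT levels and Kcnd3 at percentile 21.6. In KO the level of Kcnd3 was 8.63 ± 2.04 (SD, n = 2), so that both KO libraries were above every Kcnma1 level (from 4.71 to 6.74 over all libraries). The ratio of Kcnd3 to Kcnma1 was 0.136 to 0.181 in WT and 1.61 and 1.35 in KO-1 and KO-2. This order in KO rests on the division by length, as the 16976 merged exon bases of Kcnma1 lower its level. In normalised counts Kcnma1 was above Kcnd3 in KO-1 (2326 and 2115) and in KO-2 (2187 and 1666). Levels of Abcc9 in KO (91.8 and 103.7) were above those of Kcnmb1 (73.6 and 87.1), the reverse of the order in each WT library.

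**Figure D3:**
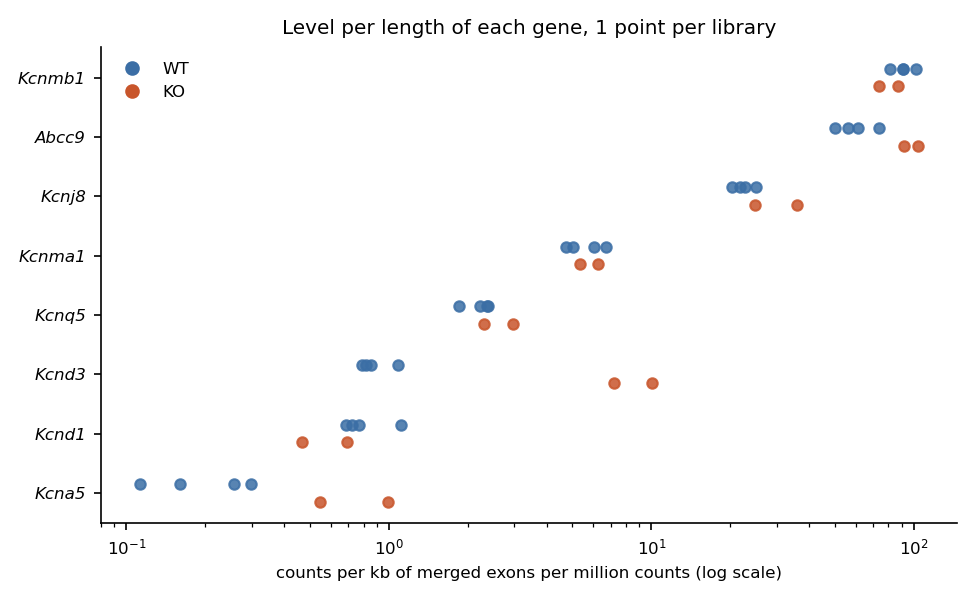
Level of each of the 8 genes in depth-scaled counts per kilobase of merged exons (log axis), with 1 point per library and WT in blue above KO in orange. Kcnd3 stood between 0.789 and 1.08 in WT and at 10.1 and 7.19 in KO.

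The wider list of potassium channel and partner genes held 102 symbols, of which 101 were in the table, 22 had no count in any library and 50 averaged 10 or more normalised counts. Of the 47 tested genes that are not among the 8, 4 passed the adjusted p-value in the higher and 4 in the lower direction (17.0%, against 10.4% of all tested genes). Of the 47, 4 were called higher and 2 lower (12.8%, against 5.64% of all tested genes, 3.54% higher and 2.1% lower). The median log2 fold change of the 47 was 0.25, against 0.01 for all tested genes. Kcnk3, the K2P channel TASK-1 that sets resting potential, was called higher. It had 220.8, 276.6, 126.8 and 179.6 normalised counts in WT, 640.4 in KO-1 and 1393 in KO-2, with a log2 fold change of 2.34 (SE 0.35, DESeq2 adjusted p-value 5.95e-09). Without KO-2 it was 1.68 (DESeq2 adjusted p-value 0.00168). An antisense gene, Gm9899, shares 229 exon bases with it and had 3 to 25 counts in WT and 54 and 57 in KO.

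Kcnh2, the ERG channel that repolarises the heart, was called lower. It had 4052, 4153, 3367 and 3090 normalised counts in WT and 1778 in KO-1 and 1723 in KO-2. The KO libraries were close to each other and well below WT, a log2 fold change of -1.07 (SE 0.19, DESeq2 adjusted p-value 8.62e-07). Kcns3, a silent subunit that joins Kv2 pores, and Kcnc4, a Kv3 pore, passed the adjusted p-value with smaller decreases (-0.77, adjusted p-value 0.0347, and -0.52, adjusted p-value 0.0281, DESeq2).

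**Figure D4:**
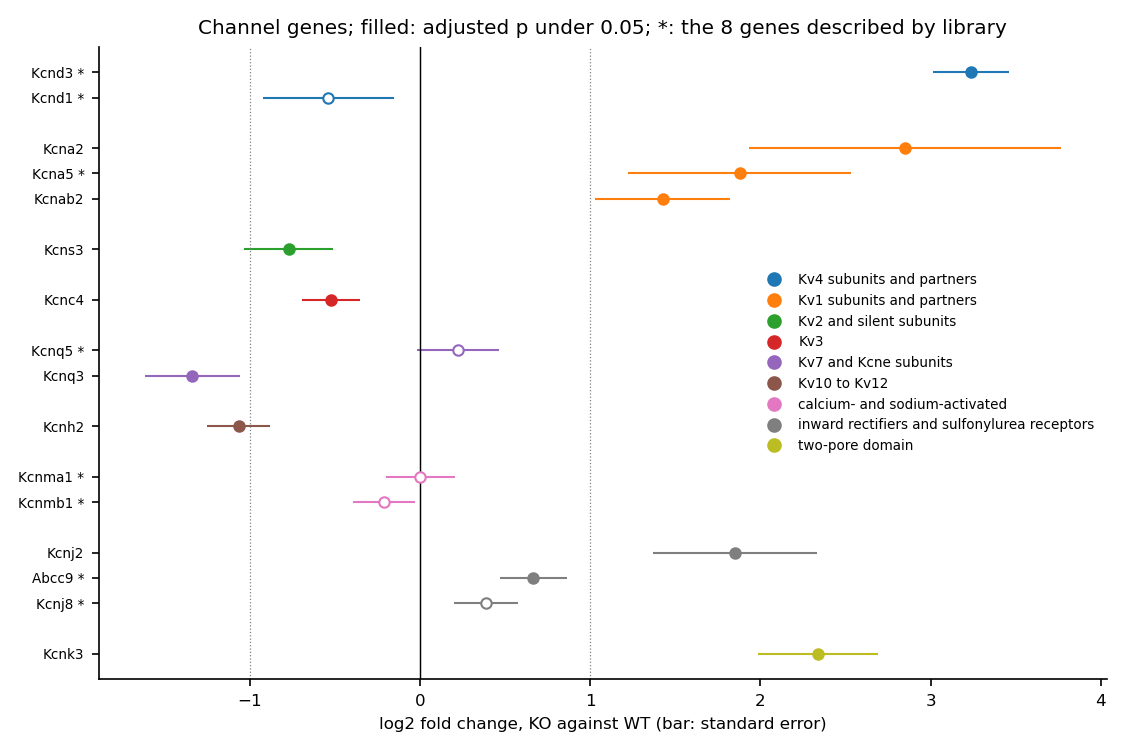
Log2 fold change in KO against WT (bars are DESeq2 standard errors) of 16 genes of the potassium channel list, the 8 genes described by library and the other 8 that passed the adjusted p-value, coloured by family. Filled points passed an adjusted p-value of 0.05, dotted lines mark a 2-fold change and stars mark the 8 genes. Kcnd3 stood at 3.24, and Kcnq3 lay farthest to the other side at -1.34.

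Several of these channels are also used by cells other than smooth muscle, so marker lists were set beside them. In whole tissue, fewer cells of a type and less RNA per cell cannot be told apart. The summed cardiac muscle markers (12 of 12 at a mean of at least 10) were 3113.5 to 4499.1 normalised counts in WT. In KO-1 the sum was 30629.0 and in KO-2 it was 4581.1. Of the 12, 6 passed the adjusted p-value, all higher, where 10.4% of all tested genes passed it (5.71% higher). In KO-1 all 12 lay above every WT library, and in KO-2 4 did and 2 lay below. Both KO libraries were above every WT library for 4 of the 12, against 17.9% of all tested genes. Ryr2, which made up most of the WT sum, had 2290.9 to 2666.8 in WT and 3099.6 and 1368.1 in KO, whereas Tnnt2 had 376.3 to 848.8 in WT and 4444.9 and 1975.3 in KO. Myl2 was at 0 in all WT libraries and at 377.4 in KO-2, and Sln was at 0 in KO-2. The heart expresses Kcnd3, and Kcnj3 and Kcnj5 were high in KO-1, the library with the high cardiac sum. The part of cardiac cells in the values of these 3 genes was not tested.

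Neuron and ganglion markers (3 of 8 at a mean of at least 10) summed to 1427.4 to 1802.4 in WT and 1071.4 and 786.7 in KO, and Schwann cell markers (7 of 7) to 1111.5 to 1200.7 in WT and 1378.7 and 1202.1 in KO. The neuron sum was mostly Uchl1 (1266.6 to 1636.2 in WT, 838.5 and 472.0 in KO), and Stmn2 went the other way (113.8 to 152.7 in WT, 207.9 and 282.7 in KO). Brown adipocyte markers (7 of 7) summed to 484.5 to 788.7 in WT, 1067.6 in KO-1 and 12761.2 in KO-2. Kcnk3, Kcna5 and Abcc9 were each higher in KO-2 than in KO-1, as were these markers and those of white adipocytes (7 of 7, 5662.0 and 39630.7, against 2713.8 to 5293.9 in WT), mesothelial cells (6 of 6, 899.2 and 2459.6, against 228.1 to 451.4) and red blood cells (5 of 5, 11075.9 and 61684.3, against 859.3 to 5989.6). Their part in the 3 genes was not tested. Kcnd1, Kcnq5, Kcnmb1 and Kcnab2 were also higher in KO-2 than in KO-1, so this order was not particular to the 3. Kcnd3, Kcnma1 and Kcnj8 had the reverse order. Endothelial markers (8 of 8, 12729.5 to 22886.8 in WT, 32431.1 and 31378.1 in KO), macrophage markers (8 of 8, 8954.5 to 10832.5 in WT, 15521.6 and 17786.0 in KO) and fibroblast markers (8 of 8, 46487.7 to 52126.2 in WT, 65265.1 and 60350.7 in KO) had higher sums in both KO libraries. Of these lists of 8, 4 endothelial, 7 macrophage and 3 fibroblast markers passed the adjusted p-value, all higher. Over all tested genes 10.4% passed it (5.71% higher and 4.69% lower). Egfl7, by contrast, had 1023.3 to 1466.5 in WT and 854.4 and 810.0 in KO. Clec3b had 2590.4 to 3863.1 in WT and 3110.2 and 1750.3 in KO. Whether these 3 lists bear on Kcnd3 was not tested. Skeletal muscle markers (4 of 10) summed to 193.2 to 266.9 in WT, 711.0 in KO-1 and 245.8 in KO-2. The KO-1 sum was mostly Ckm (104.4 to 141.0 in WT, 608.5 in KO-1, 83.6 in KO-2). Tnnt3 had 47.6 to 73.6 in WT, 44.0 in KO-1 and 92.2 in KO-2, and Myh1, Myh2 and Myog were at 0 in every library.

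Kcnj8 and Abcc9 are known from pericytes as well. The pericyte list (7 of 8 at a mean of at least 10) summed to 63566.5 to 73782.6 in WT and to 34098.9 and 45658.5 in KO. Most of the sum was Rgs5, Cspg4 and Pdgfrb, each below every WT library in both KO libraries. Rgs5 had 26653.9 to 35501.2 in WT and 13532.9 and 25912.0 in KO. Cspg4 had 20869.5 to 24361.9 in WT and 9682.8 and 8616.4 in KO. Pdgfrb had 11162.1 to 13001.9 in WT and 8732.8 and 8755.3 in KO. Notch3 had 1578.8 to 1830.2 in WT and 1874.2 and 1912.6 in KO, and Vtn had 0 to 11.7 in WT and 22.8 and 38.1 in KO. Higd1b was at 0 in all WT libraries and at 5.31 and 7.38 in KO. The sum thus follows Rgs5, Cspg4 and Pdgfrb, while the median log2 fold change of the 7 tested pericyte markers was -0.089. The part of pericytes in Kcnj8 and Abcc9 was not tested. When libraries were scaled on smooth muscle genes alone, the log2 fold changes of Kcnd3, Kcna5 and Abcc9 were 3.40, 2.01 and 0.81, against a shift of the median over expressed genes from 0.016 to 0.173.

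**Figure D5:**
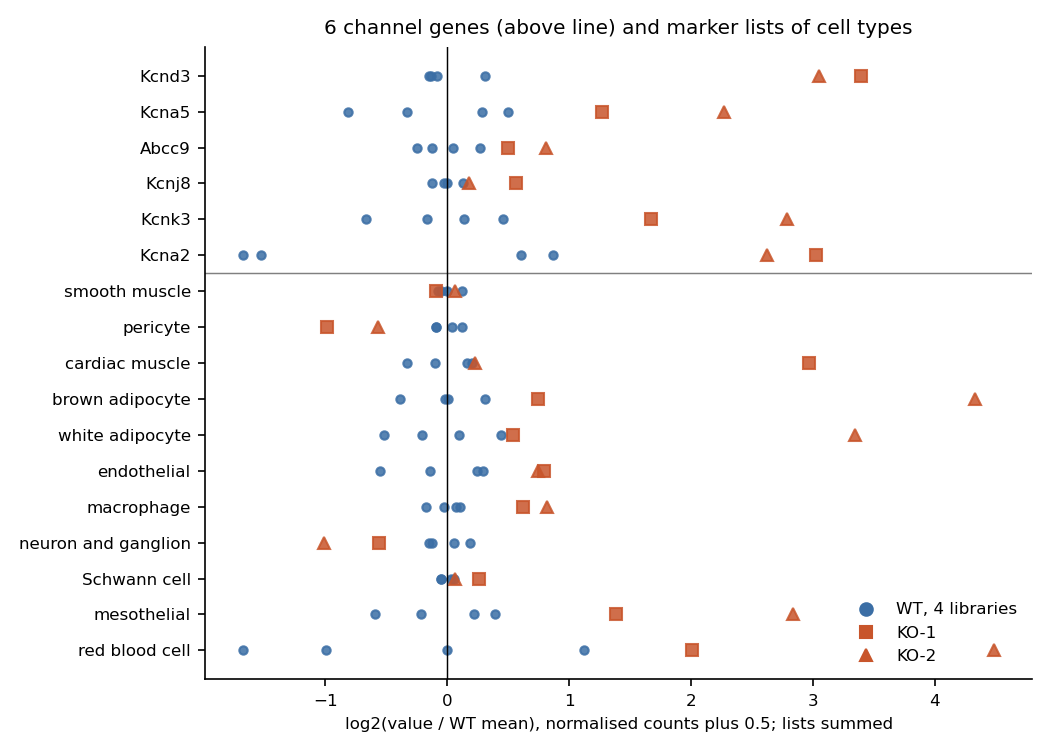
Log2 ratio to the WT mean (0.5 added to normalised counts) of 6 channel genes, above the line, and of summed marker lists of cell types, below it. Circles are the 4 WT libraries, squares KO-1 and triangles KO-2. Kcnd3 was high in both KO libraries (3.40 and 3.05), and the cardiac list, whose WT sum is mostly Ryr2, was at 2.97 in KO-1 and 0.23 in KO-2, its part in Kcnd3 being untested.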

How the data were processed

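Counts per gene were examined for 6 libraries (4 WT, 2 KO). The authors trimmed reads with Trim Galore, mapped them to GRCm38 with HISAT2 and quantified GENCODE M15 genes with StringTie. The deposited values are estimated counts, already whole numbers, not scaled for depth. How coverage became whole numbers and whether strand was used are not given in the sources used here, so overlapping antisense genes can share reads. Columns carry codes, and the code with 4 columns was assigned to WT and that with 2 to KO, an inference from the number of columns and their trailing numbers that the labels do not state.

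Symbols, positions and merged exon lengths came from GENCODE M21 on GRCm38 (52489 of 52636 identifiers matched without version). DESeq2 1.42.0 in R 4.3.3 compared KO with WT on the whole table (Wald test, group only, default filtering), with Benjamini-Hochberg adjustment over all tested genes. A call required both an adjusted p-value below 0.05 and more than a 2-fold change, the rule of the study. Fold changes of a single library used a pseudocount of 0.5. Intervals of log2 fold changes are 95% Wald intervals from the fit. Fits were tested on simulated data. Alternatives were edgeR 4.0.16 quasi-likelihood tests with and without a filter, 3 other scalings, a minimum of 10 counts in 2 libraries, no fold threshold, leaving out each library, and the replicate number as a block. Promoters came from RefSeq (GRCm38.p6), which matched 7 of the 8 genes, Kcnd1 being without an entry.

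The genes, lists and tests were chosen with earlier results of these data known. The text names the 8 genes, other channel genes that were called averaging 10 or more normalised counts, the 5 genes nearest to Kcnd3, and further channel genes and markers chosen after their values were seen. Nothing in the labels says that libraries came from separate litters or preparations, so p-values measure the spread between these libraries. Some genes of the channel list are not reported here by name, though they are part of its counts.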

Additional observations from a re-analysis of the deposited data

Results flagged for a closer look

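A gene was noted when 1 of the 4 WT libraries was distant from its group, the distance to the nearest library being most of the spread of WT. Among the 50 channel genes averaging 10 or more normalised counts this was found for 2, where 2.5 would be found by chance at 1 in 20. Kcnd3 had a normalised count of 248.7 in WT-3, where its 3 companions had 181.2 to 189.5, and without WT-3 its log2 fold change was 3.36. Kcnn3, a small-conductance calcium-activated channel, had 286.1 in WT-4, whereas WT-1 to WT-3 had 24.2 to 35.1 and KO had 235.2 and 347.9 in KO-1 and KO-2. DESeq2 gave Kcnn3 no adjusted p-value, and WT-4 alone among the WT libraries lay within the range of KO.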

How the results depend on the processing

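Kcnd3 was called in all 13 alternative fits, with log2 fold changes from 3.06 to 3.41 and adjusted p-values from 3.94e-52 to 0.000605. Kcna5 passed the adjusted p-value in 6 of 13 and Abcc9 in 9 of 13. Under edgeR with a filter (adjusted p-values 0.0689 and 0.0675) their log2 fold changes were 1.85 and 0.65, and without one (0.0713 and 0.0648) 1.87 and 0.67, and neither passed. Leaving out 1 library at a time gave 1.304 to 2.31 for Kcna5, 0.51 to 0.82 for Abcc9, 0.18 to 0.58 for Kcnj8, -0.04 to 0.46 for Kcnq5 and -0.08 to 0.11 for Kcnma1. Kcnq5 was negative (-0.039) without KO-2. Kcnma1 was at -0.017 under edgeR with a filter, at -0.00 (-0.0019) with a count minimum, at -0.043 without WT-1, -0.083 without WT-2 and -0.043 without KO-1, all beside a value of 0.00 (0.001). Kcnd1 and Kcnmb1 stayed negative and did not pass in any of the 13.

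The number of genes called, 962 (604 higher, 358 lower), was 633 (392 higher) in edgeR with a filter, 230 lower without one, 1775 (974 higher, 801 lower) with no fold threshold, and 636 to 1284 with 1 library left out (306 to 724 higher, 283 to 560 lower). Channel genes called were 6 higher and 2 lower. With 1 library left out they were 3 to 7 higher and 2 to 4 lower, the 3 and the 4 being without KO-2. With no fold threshold 4 were lower, and 1 was lower with smooth muscle scaling, where Kcnh2 was at -0.91. With the replicate number as a block, 561 genes were called (305 higher), 1 channel gene was lower, and Kcna5 was at 2.08 with an adjusted p-value of 0.452. Deviations of same-numbered libraries from their group means had r = -0.087 and 0.014. With 2 KO libraries these deviations mirror each other, so the values cannot show whether the numbers pair libraries. With 2 KO libraries, no alternative tests their spread well, and counts under 20 limit Kcna5.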
